A study of Mus musculus with 14 samples.

Results

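The CC chemokine ligands described here are 10 mouse genes, Ccl2, Ccl3, Ccl4, Ccl6, Ccl7, Ccl8, Ccl9, Ccl12, Ccl22 and Ccl24, picked by symbol from a deposited exon count table that holds 25239 gene symbols. The distinct exon entries of each gene were summed. All 10 genes had counts and all 10 were among the 13311 genes that passed the filter on low counts. The weakest, Ccl22, had 153 counts over all 14 libraries.

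The 4 groups crossed 2 genotypes of macrophages grown from bone marrow (BMDMs, raised with L929 cell medium as their source of growth factor) with 2 media given for 24 h. KO cells in conditioned medium (KO CM, 3 libraries) came from Ezh2fl/fl;LysM-Cre+/- mice and received medium from Hepa1-6 cells, a mouse hepatoma line. KO cells in control medium (KO control, 3 libraries) had the same genotype and received DMEM complete medium. WT CM and WT control (4 libraries each) were cells of littermates in the same 2 media. The Cre recombinase is driven by the lysozyme M promoter, which acts in myeloid cells and not in macrophages alone, and the littermates' own alleles at Ezh2 and at the Cre locus are not given in the sources used here. Nothing in the labels says that libraries of a group came from separate animals, and every p-value rests on the spread among these libraries, which may be technical. No group received medium of another cell line as its 24 h treatment. A response to Hepa1-6 products and a response to any conditioned medium thus cannot be told apart. The design asks how these macrophages respond to tumour cell medium and whether loss of Ezh2, the catalytic subunit of Polycomb repressive complex 2, alters that response.

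CC chemokines are small secreted proteins, named for adjacent cysteines near the start of the mature chain, that draw leukocytes along a gradient by binding G protein-coupled receptors of the CCR family. Macrophages are a major source of them. Ligands of CCR2, such as Ccl2, draw monocytes out of the marrow and into inflamed tissue and tumours, while ligands of CCR1 act on monocytes, macrophages and other leukocytes. Ccl6, Ccl9 and Ccl12 are rodent genes with no direct human counterpart of the same name.

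The 10 genes sit at 4 places in the mouse genome (GRCm38.p6, RefSeq). A cluster of monocyte chemoattractant genes on chromosome 11, 81.2 kb long, holds Ccl2 (82035577 to 82037452), Ccl7 (82045712 to 82047525), Ccl12 (82101845 to 82103399) and Ccl8 (82115185 to 82116799), all on the plus strand. A cluster of macrophage inflammatory protein genes, 91.8 kb long, lies 1456 kb further along and holds Ccl9 (83572917 to 83578636), Ccl6 (83587886 to 83593087) and Ccl3 (83647843 to 83649378) on the minus strand and Ccl4 (83662584 to 83664683 in GENCODE) on the plus strand. Ccl22 lies on chromosome 8 (94745684 to 94751388, plus strand) and Ccl24 on chromosome 5 (135569935 to 135573123, minus strand). The RefSeq locus of Ccl4 begins at 83648624, inside Ccl3 and on the other strand. The library kit keeps strand, but the strand setting of the counting is not given in the sources used here, so reads from a stretch shared by those 2 loci could not be assigned with certainty. The longest run of identical bases between transcripts of any 2 of the 10 genes is 25 bases, between Ccl6 and Ccl9, against reads of 150 bp.

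The sequences just upstream of 2 neighbouring pairs are printed because the members of a pair lie side by side and are close relatives, while their responses to conditioned medium, given further on, had the same direction within each pair but differed in size. RefSeq's promoter table for GRCm38.p6 held 6 of the 10 genes (Ccl3, Ccl6, Ccl8, Ccl9, Ccl12 and Ccl22). Each run below is the 250 bases before the annotated start, 5′ to 3′ on the strand of the gene. Capitals mark matches, on either strand, to AP-1 (TGANTCA), PU.1 (GAGGAA) and the NF-kB consensus, and on the gene's own strand to TATAAA.
Ccl6, chr11:83593088-83593337, minus strand: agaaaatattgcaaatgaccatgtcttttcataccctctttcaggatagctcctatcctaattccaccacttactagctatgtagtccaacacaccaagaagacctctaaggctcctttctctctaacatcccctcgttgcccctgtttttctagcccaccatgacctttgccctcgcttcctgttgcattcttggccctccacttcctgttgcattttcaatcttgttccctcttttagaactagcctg
Ccl9, chr11:83578637-83578886, minus strand: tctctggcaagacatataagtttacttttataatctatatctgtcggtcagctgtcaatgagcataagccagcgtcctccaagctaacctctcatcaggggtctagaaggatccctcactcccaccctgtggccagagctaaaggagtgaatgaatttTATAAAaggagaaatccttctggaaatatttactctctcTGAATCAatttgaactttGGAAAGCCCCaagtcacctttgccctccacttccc
Ccl8, chr11:82114935-82115184, plus strand: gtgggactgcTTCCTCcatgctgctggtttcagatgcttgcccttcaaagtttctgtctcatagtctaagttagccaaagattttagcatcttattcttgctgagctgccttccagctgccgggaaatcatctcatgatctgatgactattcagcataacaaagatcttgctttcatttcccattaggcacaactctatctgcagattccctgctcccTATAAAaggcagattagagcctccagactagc
Ccl12, chr11:82101595-82101844, plus strand: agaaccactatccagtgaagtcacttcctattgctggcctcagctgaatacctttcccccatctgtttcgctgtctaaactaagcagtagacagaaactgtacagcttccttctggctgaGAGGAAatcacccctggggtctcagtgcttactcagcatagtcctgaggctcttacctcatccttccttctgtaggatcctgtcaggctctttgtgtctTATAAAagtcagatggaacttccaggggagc

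Counted from the annotated start, Ccl12 and Ccl8 carried TATAAA at bases -31 to -26 and -32 to -27, and Ccl9 at -92 to -87. Ccl9 also held an NF-kB match at -35 to -26 and an AP-1 match at -53 to -47. PU.1 matches lay at -130 to -125 of Ccl12, at -240 to -235 of Ccl8 and at -33 to -28 of Ccl3. The window of Ccl6 matched none of the 8 motifs searched. Of 32851 promoters of the same length, 3.9% matched NF-kB, 6.75% AP-1, 23.3% PU.1 and 7.59% TATAAA. The other motifs, STAT (TTCNNNGAA, 7.02% of promoters), C/EBP (TTGCNNAA, 9.56%), ISRE (GAAA, then any 2 bases, then GAAA, 2.98%) and HRE (ACGTG, 16.6%), matched none of the 6 windows. The best local alignment of the printed runs covered 17 bases between Ccl6 and Ccl9, of which 16 were identical (94.1%), and 54 bases between Ccl8 and Ccl12, of which 41 were identical (75.9%). In the 300-base table windows, which run past the start, it covered 67 bases between Ccl6 and Ccl9, of which 59 were identical (88.1%), and 35 bases between Ccl8 and Ccl12, of which 28 were identical (80%). A match describes letters only and is not evidence of a bound site.

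Libraries held 40249866 to 61539097 exon counts in KO CM, 41792602 to 54362151 in KO control, 41312499 to 85774436 in WT CM and 45167883 to 82089492 in WT control. WT libraries 3 and 4 of both media stood apart from the other 10. In a component analysis of how each gene's counts divide over its exons (120332 exons), they scored 0.40 to 0.44, against -0.21 to -0.15 for the other 10 libraries, on a component with 46.9% of the variance. No KO library belongs to that set, so differences of the ligands between genotypes are also given with those libraries left out wherever this changed a call. The libraries labelled KO had, in 2 Ezh2 exons of 85 and 81 bases chosen after their values were seen, 7.22 to 19.3% (KO CM) and 2.07 to 31.7% (KO control) of the count per base of the other Ezh2 exons, against 94 to 143% in WT CM and 103 to 170% in WT control. Summed over all its exons, Ezh2 was lower in KO in CM (log2 -0.40, edgeR adjusted p = 0.0334). In control medium it was not called (-0.31, edgeR adjusted p = 0.0761). CM raised it in KO (0.55, edgeR adjusted p = 0.000686) and in WT (0.63, edgeR adjusted p = 3.99e-05). All 8 macrophage markers exceeded a mean of 1 CPM (counts scaled to library size) in every group. They summed to 19246 to 19949 CPM in KO CM, 21319 to 22029 CPM in KO control, 29409 to 32423 CPM in WT CM and 30250 to 35762 CPM in WT control. Lyz2, the gene of lysozyme M whose promoter drives the Cre, was the most abundant of them and was lower in KO, with means of 9478 CPM in KO CM, 10221 CPM in KO control, 20458 CPM in WT CM and 21891 CPM in WT control (log2 -1.11 in CM, edgeR adjusted p = 1.83e-06, and -1.10 in control medium, edgeR adjusted p = 9.46e-07). The other 7 macrophage markers were not called between genotypes in either medium. The lists for T and NK cells, B cells and fibroblasts each summed to at most 1.97 CPM in any library. The neutrophil list summed to 98.4 to 118 CPM in KO CM, 84.4 to 92.2 CPM in KO control, 80.5 to 93.8 CPM in WT CM and 68.1 to 84.3 CPM in WT control, nearly all of it Csf3r. The 4 hepatocyte or hepatoma markers summed to 1.87 to 2.32 CPM in KO CM, 2.16 to 3.03 CPM in KO control, 2 to 2.53 CPM in WT CM and 1.61 to 1.93 CPM in WT control, nearly all of it Afp, with Alb at 0 counts in every group. Afp was called higher in KO in control medium (log2 0.58, edgeR adjusted p = 0.0445), though not with WT libraries 3 and 4 left out (0.65, edgeR adjusted p = 0.109). It passed with that set of libraries as a term in the fit (0.67, edgeR adjusted p = 0.0271). The part of these markers in the results was not tested. In bulk RNA, fewer cells of a type and less RNA per cell cannot be told apart.

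Conditioned medium raised 8 of the 10 ligands in each genotype, Ccl2, Ccl3, Ccl6, Ccl7, Ccl8, Ccl9, Ccl12 and Ccl24, and lowered none. The largest ratios belonged to the monocyte chemoattractant cluster and to Ccl6, and the smallest of the 8 to Ccl3. Ccl4 and Ccl22 did not pass the test in either genotype. Tests used edgeR's quasi-likelihood test over all 13311 genes, with Benjamini-Hochberg adjustment and a call at an adjusted p below 0.05. The response called 38.1% of all genes in KO cells (20.0% higher, 2659 genes, and 18.2% lower, 2418 genes) and 37.3% in WT cells (19.3% higher, 2570 genes, and 18.0% lower, 2390 genes). With library totals alone in place of TMM factors, the numbers were 1941 higher and 3624 lower in KO cells and 1957 higher and 3501 lower in WT cells, and the median of all genes moved to -0.12 in KO and -0.09 in WT on the log2 scale, while the same 8 ligands stayed called higher. The same 8 were also called in WT cells with libraries 3 and 4 left out (4348 genes called). With only those 2 libraries kept in each medium, the 8 and Ccl4 were called in WT cells (4889 genes called). The median log2 fold change of the 10 ligands was 2.23 in KO and 2.10 in WT cells, against -0.01 over all genes in each. The CM and control libraries did not overlap for 9 ligands in KO cells, where 54.6% of all genes did not overlap, and for 8 in WT cells, where 33.8% did not.

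**Figure D1:**
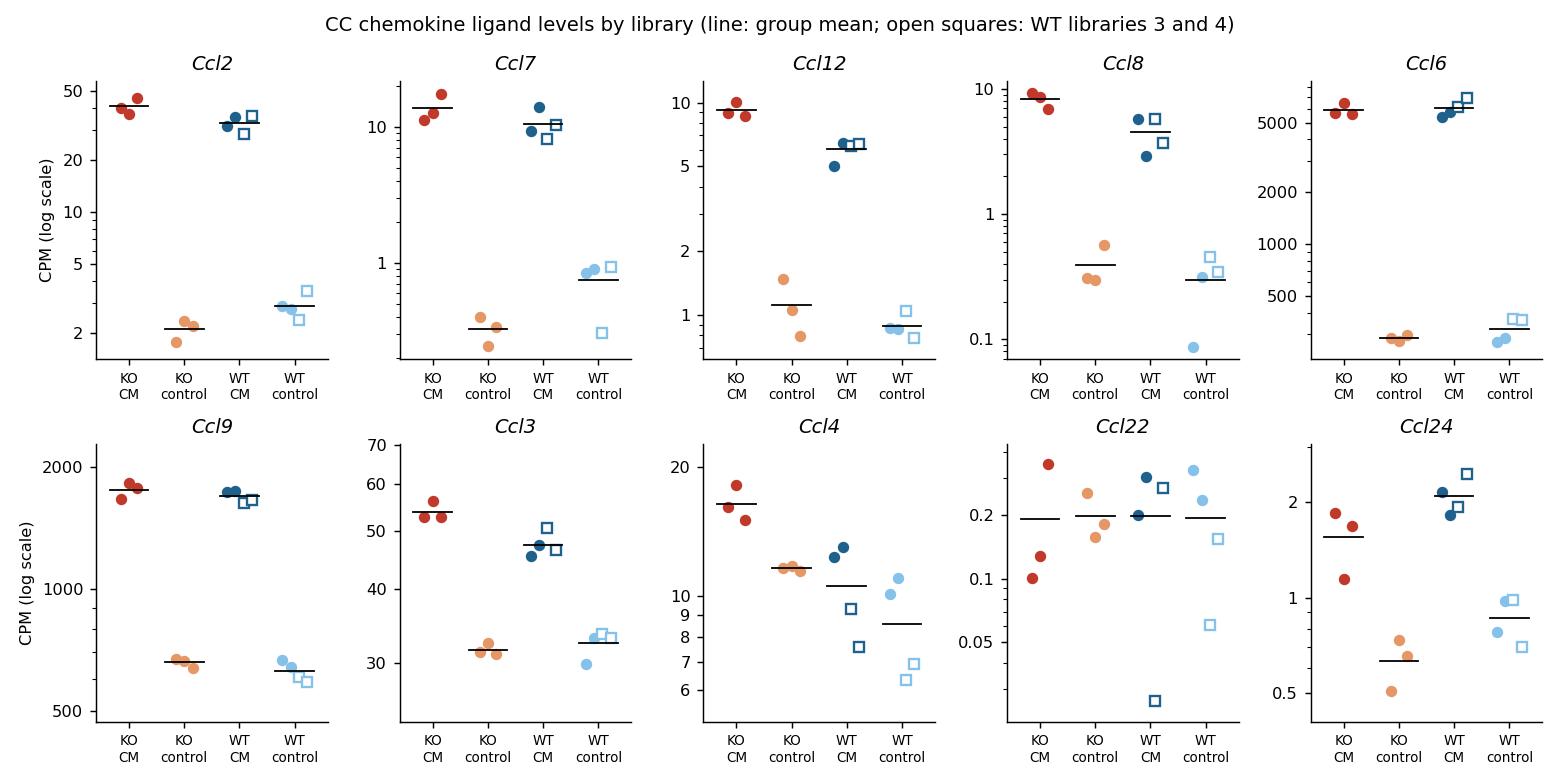
Level of each CC chemokine ligand in every library, in CPM on log axes that differ between panels, with a line at the group mean and open squares for WT libraries 3 and 4. The CM libraries lie above the control libraries of their genotype for Ccl2, Ccl7, Ccl12, Ccl8, Ccl6, Ccl9, Ccl3 and Ccl24, while the groups of Ccl22 overlap and those of Ccl4 overlap in WT.

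Ccl2, the main ligand of the monocyte receptor CCR2, had 40.1, 37 and 45.7 CPM in KO CM, against 1.78, 2.37 and 2.22 CPM in KO control. In WT cells it had 31.5, 35.5, 28.4 and 35.8 CPM in CM, against 2.87, 2.78, 2.38 and 3.53 CPM in control medium. Every CM library lay far above every control library of either genotype. Its log2 fold change was 4.27 ± 0.16 (SE) in KO cells (19.3-fold, edgeR adjusted p = 1.73e-11) and 3.50 ± 0.13 in WT cells (11.3-fold, edgeR adjusted p = 1.39e-11). The ratio was alike at its 3 exons, 17.7 to 20.6 in KO and 11.3 to 11.4 in WT, so that each exon had the larger ratio in KO.

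Ccl7, which binds CCR1 and CCR3 as well as CCR2, had 11.2, 12.5 and 17.3 CPM in KO CM, against 0.4, 0.246 and 0.34 CPM in KO control. WT cells had 9.25, 13.9, 8.06 and 10.3 CPM in CM, against 0.847, 0.9, 0.304 and 0.94 CPM in control medium. The control libraries of KO rest on 51 counts in all, so the ratio there is less exact than for Ccl2. The gene rose by 5.38 ± 0.37 on the log2 scale in KO cells (41.6-fold, 95% interval 24.2 to 71.6, edgeR adjusted p = 1.4e-08), the largest ratio among the 10, and by 3.82 ± 0.28 in WT cells (14.1-fold, 95% interval 9.36 to 21.4, edgeR adjusted p = 2.69e-08).

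Ccl12, a further CCR2 ligand of the mouse, had 8.95, 10.1 and 8.68 CPM in KO CM, against 1.47, 1.05 and 0.792 CPM in KO control. WT cells had 5.04, 6.45, 6.25 and 6.37 CPM in CM, against 0.869, 0.861, 1.04 and 0.774 CPM in control medium. Here the CM groups themselves were separate, with all 3 KO libraries above all 4 WT libraries. Ccl12 rose 8.29-fold in KO cells (log2 3.05 ± 0.19, edgeR adjusted p = 4.42e-09) and 6.78-fold in WT cells (2.76 ± 0.16, edgeR adjusted p = 2.18e-09).

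Ccl8, which in the mouse acts on CCR8, completed the cluster with 9.23, 8.55 and 6.87 CPM in KO CM, against 0.309, 0.298 and 0.566 CPM in KO control. WT cells had 5.74, 2.89, 5.73 and 3.72 CPM in CM, against 0.0869, 0.313, 0.45 and 0.345 CPM in control medium. The lowest WT CM library was thus still well above the highest control library. Ccl8 rose 21.3-fold in KO cells (log2 4.42 ± 0.37, edgeR adjusted p = 1.72e-07) and 14.2-fold in WT cells (3.82 ± 0.32, edgeR adjusted p = 1.34e-07). Control libraries held 59 counts of it in KO and 86 in WT.

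Ccl6, a CCR1 ligand, was the most abundant ligand in CM. It had 5693, 6530 and 5632 CPM in KO CM, against 285, 274 and 299 CPM in KO control, and 5410, 5738, 6135 and 6958 CPM in WT CM, against 270, 286, 369 and 364 CPM in WT control. By mean CPM per kb of exon it ranked 8 of 13311 genes in CM in each genotype, and in control medium 301 in KO and 258 in WT. The rise was 20.8-fold in KO cells (log2 4.38 ± 0.13, edgeR adjusted p = 2.95e-12) and 18.8-fold in WT cells (4.23 ± 0.12, edgeR adjusted p = 6.17e-13). Its 4 exons gave ratios of 17.7 to 22 in KO and 18.7 to 19.1 in WT.

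Ccl9, which also binds CCR1 and whose start lies 14.5 kb from that of Ccl6, had 1673, 1829 and 1782 CPM in KO CM, against 673, 666 and 640 CPM in KO control. WT cells had 1739, 1751, 1632 and 1657 CPM in CM, against 669, 643, 606 and 589 CPM in control medium. The libraries of a group lay close together and the media did not overlap. Ccl9 rose 2.67-fold in KO cells (log2 1.42 ± 0.06, edgeR adjusted p = 8.74e-11) and 2.7-fold in WT cells (1.44 ± 0.05, edgeR adjusted p = 1.19e-11), a much smaller ratio than that of Ccl6.

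Ccl6 and Ccl9 made up nearly all of the summed CPM of the 10 ligands. The sum was 7857 ± 560 CPM in KO CM and 994 ± 11 CPM in KO control (SD, n = 3 each), and 7869 ± 626 CPM in WT CM and 996 ± 18.8 CPM in WT control (SD, n = 4 each). Ccl6 held 75.7% of the sum in KO CM and 28.8% in KO control, and 76.9% in WT CM and 32.3% in WT control. Ccl9 held 22.5% in KO CM and 66.4% in KO control, and 21.7% in WT CM and 63% in WT control. The main ligand of the sum was therefore Ccl6 in CM and Ccl9 in control medium. The other 8 ligands summed to 144 ± 4.08 CPM in KO CM and 48 ± 0.851 CPM in KO control, and to 114 ± 4.97 CPM in WT CM and 46.9 ± 2.23 CPM in WT control. These sums are in CPM and were not set to gene length.

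**Figure D2:**
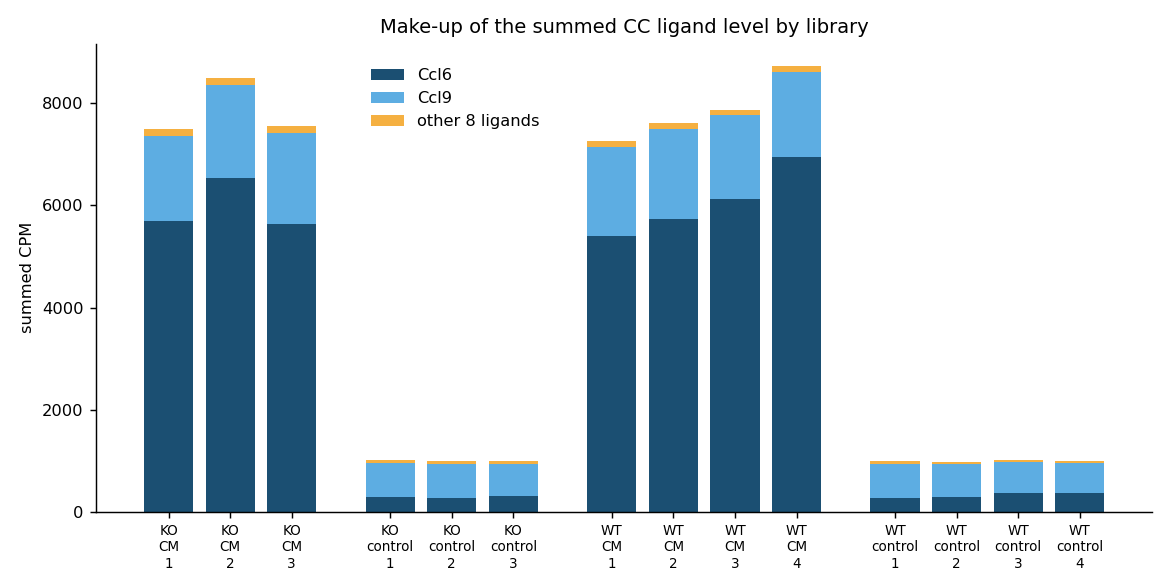
Summed level of the 10 ligands in each library, in CPM, stacked as Ccl6, Ccl9 and the other 8. The CM libraries reach 7260 to 8728 CPM and are mostly Ccl6, while the control libraries lie between 978 and 1021 CPM and are mostly Ccl9.

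Ccl3, a ligand of CCR1, had 52.8, 56.2 and 52.9 CPM in KO CM, against 31.4, 32.4 and 31.1 CPM in KO control. WT cells had 45.4, 47.5, 50.7 and 46.6 CPM in CM, against 29.9, 33.1, 33.6 and 33.1 CPM in control medium. The shift was small but larger than the spread within any group. It rose 1.71-fold in KO cells (log2 0.77 ± 0.06, edgeR adjusted p = 1.15e-07) and 1.47-fold in WT cells (0.55 ± 0.05, edgeR adjusted p = 8.11e-07).

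Ccl4, a macrophage inflammatory protein encoded next to Ccl3, had 16.1, 18.1 and 15 CPM in KO CM, against 11.6, 11.7 and 11.4 CPM in KO control. WT cells had 12.3, 13, 9.28 and 7.57 CPM in CM, against 10.1, 11, 6.34 and 6.92 CPM in control medium. In WT the spread followed the set of libraries more than the medium, since libraries 3 and 4 had 0.665 times the level of libraries 1 and 2 in CM and 0.628 times in control medium, with no overlap. Its 390-base exon held 51.7 to 55.9% of its counts in WT libraries 3 and 4, against 36.6 to 41.2% in the other 10. The log2 fold change was 0.50 ± 0.21 in KO cells (edgeR adjusted p = 0.0724) and 0.30 ± 0.18 in WT cells (edgeR adjusted p = 0.225), so Ccl4 was not called. With the library set as a term in the fit the values stayed at 0.50 in KO and 0.30 in WT and both passed (edgeR adjusted p = 0.000169 in KO and 0.00415 in WT). With WT libraries 3 and 4 left out the value in KO was 0.50 and passed (edgeR adjusted p = 0.000187). The value in WT was then 0.26 and did not pass (edgeR adjusted p = 0.0825). With WT libraries 1 and 2 left out instead, the value in WT was 0.35 and passed (edgeR adjusted p = 0.0343). With the replicate number as a block the values were 0.50 in KO and 0.30 in WT and passed (edgeR adjusted p = 0.00671 in KO and 0.0488 in WT). The numbers were not shown to pair libraries, however.

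Ccl24, an eosinophil attractant that binds CCR3, had 1.85, 1.15 and 1.68 CPM in KO CM, against 0.509, 0.737 and 0.657 CPM in KO control. WT cells had 2.16, 1.83, 1.94 and 2.45 CPM in CM, against 0.782, 0.978, 0.984 and 0.702 CPM in control medium. It rose 2.45-fold in KO cells (log2 1.29 ± 0.24, edgeR adjusted p = 0.000436) and 2.44-fold in WT cells (1.28 ± 0.19, edgeR adjusted p = 6.91e-05). Among markers of mast cells, basophils and eosinophils, Siglecf averaged 6.6 CPM in KO CM and 1.36 CPM in KO control, and 4.33 CPM in WT CM and 1.04 CPM in WT control. The whole list of 6 summed to 5.89 to 7.42 CPM in KO CM and 1.2 to 1.81 CPM in KO control, and to 4.62 to 5.54 CPM in WT CM and 1.04 to 1.51 CPM in WT control, with Mcpt8 and Prss34 at 0 counts in every group. The part of such cells in the result was not tested.

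Ccl22, a ligand of the T cell receptor CCR4 made largely by dendritic cells and macrophages, was close to the limit of detection. It had 0.101, 0.128 and 0.349 CPM in KO CM, against 0.255, 0.158 and 0.181 CPM in KO control, and 0.201, 0.302, 0.0263 and 0.268 CPM in WT CM, against 0.326, 0.235, 0.0607 and 0.155 CPM in WT control. All groups overlapped. The 95% interval of its fold was 0.355 to 2.92 in KO cells and 0.429 to 2.62 in WT cells. The data thus do not exclude a fall or a rise within those bounds.

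**Figure D3:**
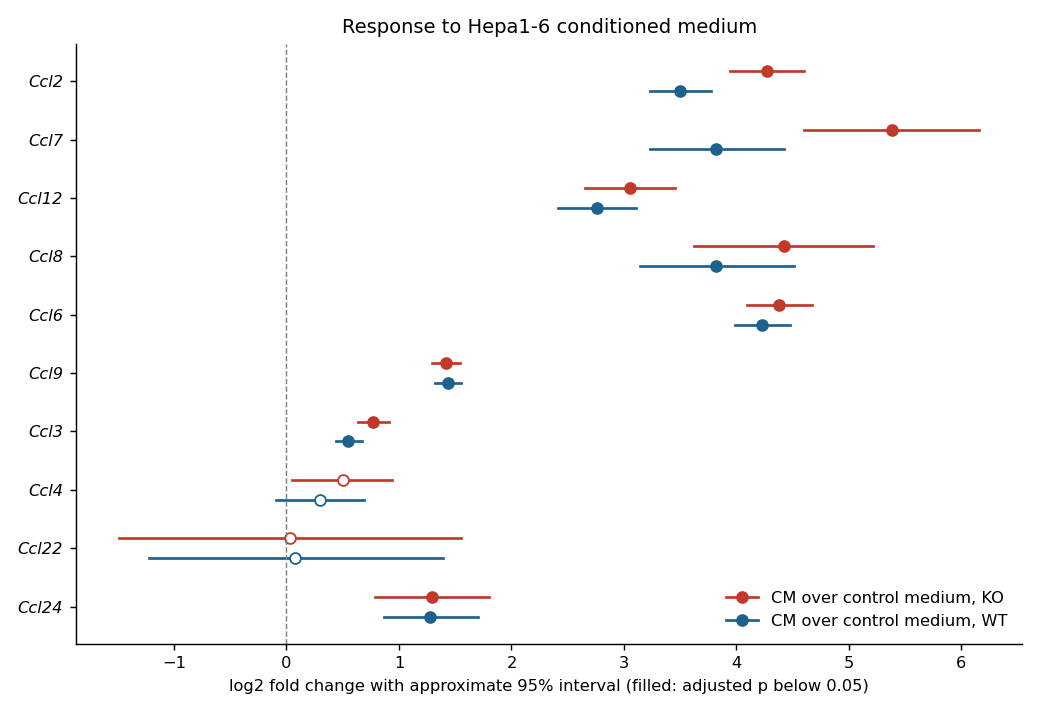
Log2 fold change of each ligand in conditioned over control medium, KO above WT in each row, with approximate 95% intervals and filled points for an adjusted p below 0.05. Ccl2 and Ccl7 lie further right in KO (4.27 and 5.38) than in WT (3.50 and 3.82), and Ccl9 lies at 1.42 and 1.44.

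Set to summed exon length, CPM per kb placed Ccl6 (4145 ± 349), Ccl9 (585 ± 26.7), Ccl3 (68.3 ± 2.49), Ccl2 (50.8 ± 5.48) and Ccl4 (24.8 ± 2.37) in that order in KO CM, with no overlap between neighbours (SD, n = 3). Ccl12 (17.3 ± 1.45), Ccl7 (17.1 ± 3.97) and Ccl8 (16.1 ± 2.38) followed and overlapped, and Ccl24 (0.698 ± 0.164) and Ccl22 (0.106 ± 0.075) came last. In KO control the order was Ccl9 (219 ± 5.9), Ccl6 (199 ± 8.62), Ccl3 (40 ± 0.877) and Ccl4 (17.5 ± 0.192), all apart, and then Ccl2 (2.63 ± 0.377) and Ccl12 (2.06 ± 0.641), which overlapped. Ccl2 thus stood above Ccl4 in CM and below it in control medium. WT CM kept Ccl6 (4220 ± 465), Ccl9 (563 ± 19.6), Ccl3 (60.2 ± 2.87) and Ccl2 (40.7 ± 4.39) in the same order and apart, while Ccl4, Ccl7, Ccl12 and Ccl8 (8.84 to 16) each overlapped the next (SD, n = 4). In WT control, Ccl6 (224 ± 36) and Ccl9 (208 ± 12) overlapped, above Ccl3 (41.1 ± 2.14), Ccl4 (13 ± 3.48) and Ccl2 (3.59 ± 0.594). A fragment can be counted in every exon it touches, so genes with short exons may be counted more often per fragment.

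Of 12 other CC ligands, 4 passed the filter, Ccl5, Ccl17, Ccl25 and Ccl27a, and in CM only Ccl17 among them rose, in both genotypes. Ccl17, a CCR4 ligand that lies 58.8 kb from Ccl22, had 79 counts in KO CM and 0 in KO control, at least 28-fold higher when the control group is set to a summed floor of 3 counts (edgeR adjusted p = 0.000707). It had 100 counts in WT CM and 1 in WT control, a ratio of 108 with a 95% counting interval of 18.9 to 4299 (edgeR adjusted p = 0.000238). By library it had 0.507, 0.319 and 0.731 CPM in KO CM, against 0 CPM in each KO control library, and 0.802, 0.884, 0.171 and 0.171 CPM in WT CM, against 0, 0, 0.0121 and 0 CPM in WT control. WT CM libraries 3 and 4 were thus the lowest of the CM libraries. The dendritic cell markers summed to 3.19 to 3.8 CPM in KO CM and 2.15 to 3.37 CPM in KO control, and to 3.67 to 4.34 CPM in WT CM and 1.35 to 2.05 CPM in WT control, with Flt3 at 0 counts in both CM groups. Of 6 tested, Batf3 and Cd209a rose and Flt3 fell in CM in both genotypes, and Dpp4 fell in WT. Batf3, a transcription factor of dendritic cells, averaged 2.26 CPM in KO CM and 1.17 CPM in KO control, and 1.76 CPM in WT CM and 0.793 CPM in WT control. Cd209a averaged 0.493 CPM in KO CM and 0.0117 CPM in KO control, and 1.67 CPM in WT CM and 0.0179 CPM in WT control. The part of dendritic cells in the Ccl17 and Ccl22 levels was not tested. Ccl11, which lies inside the monocyte chemoattractant cluster, had 0 counts in all 14 libraries, and Ccl1, beyond Ccl8 at the end of the cluster, had 1 count.

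Of 14 receptors and decoy receptors for CC ligands, 7 passed the filter. Ccr1, the receptor of Ccl3, Ccl6, Ccl7 and Ccl9, averaged 88.9 ± 10.1 CPM in KO CM and 4.42 ± 0.574 CPM in KO control (SD, n = 3 each), and 78.8 ± 7.7 CPM in WT CM and 5.03 ± 0.96 CPM in WT control (SD, n = 4 each). It rose by 4.34 ± 0.16 on the log2 scale in KO and by 3.96 ± 0.13 in WT. The monocyte receptor Ccr2 rose by 1.62 in KO and 1.78 in WT. Ccr3, the receptor of Ccl24, fell by 1.67 in KO and by 1.90 in WT. In KO cells Ccr10, a receptor of skin-homing T cells, also fell, by 0.87 (edgeR adjusted p = 0.0438), and its value in WT was -0.30 (edgeR adjusted p = 0.385). Ccrl2 and Ackr4 were not called, and the other 7 did not pass the filter.

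Of 26 genes known to regulate transcription or mRNA decay of chemokines, CM raised 9 and lowered 7 in KO cells and raised 8 and lowered 7 in WT cells. Among those with the smallest p in WT were Fos, an AP-1 subunit (-3.32 in KO and -3.08 in WT, log2 fold change), Hif1a, the hypoxia factor (1.18 in KO and 1.09 in WT), and Bcl3, a nuclear cofactor of NF-kB (0.83 in KO and 0.94 in WT). All 3 were called in both genotypes, and the list did not move one way. Of 11 tested proteases known to cleave CC chemokines, CM raised 5 and lowered 4 in each genotype. The collagenase Mmp8 rose by 2.04 in KO and 1.74 in WT, the cathepsin Ctsl by 1.28 in KO and 1.12 in WT, and the serine protease Prtn3 to 3.23 CPM in KO and 3.45 CPM in WT, against 0.0121 CPM in KO control and 0.00899 CPM in WT control. Mmp13 fell by 1.15 in KO and by 1.41 in WT.

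Genes beside the ligands varied in their response to CM. Wfdc17, beyond Ccl4 at the end of the macrophage inflammatory protein cluster, averaged 584 ± 103 CPM in KO CM and 140 ± 7.4 CPM in KO control, and 395 ± 66.1 CPM in WT CM and 122 ± 33.5 CPM in WT control. It rose by 2.06 in KO and 1.70 in WT on the log2 scale, and its neighbour Wfdc18 by 2.41 in KO and 2.34 in WT. Ccl5, on the far side of Ccl9, had log2 fold changes of -0.07 in KO and -0.21 in WT, neither called. Cx3cl1, between Ccl22 and Ccl17, fell by 1.67 in KO and by 1.41 in WT. Por, near Ccl24, fell by 0.40 in KO and by 0.45 in WT. On either side of the monocyte chemoattractant cluster, Asic2 had 0 counts and Tmem132e had 3.

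Between genotypes, Ccl12 in CM was the only ligand called, higher in KO. In CM 4.59% of all genes were called (3.10% higher and 1.49% lower in KO), and in control medium 5.32% (2.82% higher and 2.50% lower), so 1 of 10 ligands in CM and 0 of 10 in control medium are near the share over all genes. In control medium 3 ligands and 3403 of 13311 genes had an unadjusted p under 0.05, and in CM 5 ligands and 3110 genes. In control medium DESeq2 called 1501 genes, against 708 with edgeR. The ligands among them were 2, Ccl2 (-0.45, DESeq2 adjusted p = 0.0382) and Ccl7 (-1.18, DESeq2 adjusted p = 0.0115). In CM DESeq2 called 1219 genes, against 611 with edgeR, and 4 ligands, Ccl3, Ccl4, Ccl8 and Ccl12. The CM groups did not overlap for 5 ligands, Ccl2, Ccl3, Ccl4, Ccl8 and Ccl12, all higher in KO, where 20.9% of all genes did not overlap. The control groups did not overlap for Ccl2, lower in KO, and Ccl4, higher in KO, where 21.8% did not. The comparisons in CM and in control medium share no library, but each shares its libraries with the comparisons of media given above.

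Ccl12 averaged 9.26 ± 0.777 CPM in KO CM and 6.03 ± 0.664 CPM in WT CM (SD, n = 3 and 4). The difference was 0.62 ± 0.15 on the log2 scale (1.53-fold, 95% interval 1.22 to 1.92, edgeR adjusted p = 0.0337), and all 3 exons were higher in KO, 1.4 to 1.7 times. It was 0.69 with WT libraries 3 and 4 left out (edgeR adjusted p = 0.0489). The call was lost, with values of 0.54 to 0.66, when any 1 of KO CM libraries 1, 2 and 3 or WT CM libraries 1, 3 and 4 was left out (edgeR adjusted p = 0.0667 to 0.115). In control medium Ccl12 averaged 1.11 ± 0.344 CPM in KO and 0.887 ± 0.114 CPM in WT, and the groups overlapped (0.33 ± 0.19, edgeR adjusted p = 0.289).

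The other members of that cluster were not called. Ccl2 averaged 41 ± 4.42 CPM in KO CM and 32.8 ± 3.53 CPM in WT CM (log2 0.32 ± 0.12, edgeR adjusted p = 0.131), and 2.12 ± 0.304 CPM in KO control and 2.89 ± 0.479 CPM in WT control (-0.45 ± 0.15, edgeR adjusted p = 0.0919). It was thus higher in KO in one medium and lower in the other, each time without overlap and without passing the test. Ccl7 had the same signs, 0.40 ± 0.25 in CM (edgeR adjusted p = 0.333) and -1.16 ± 0.40 in control medium (edgeR adjusted p = 0.101). Its value in control medium was -1.41 with WT libraries 3 and 4 left out and -1.45 without WT control library 3, and both passed (edgeR adjusted p = 0.0341 and 0.0245). It also passed with the library set as a term (-1.36, edgeR adjusted p = 0.0461) and with DESeq2, making 4 of 25 alternatives. Ccl8 averaged 8.22 ± 1.21 CPM in KO CM and 4.52 ± 1.44 CPM in WT CM (0.86 ± 0.27, edgeR adjusted p = 0.086). It passed in 3 of 25 alternatives. These were the fit without WT control library 1 (edgeR adjusted p = 0.0437), the library set as a term (1.02, edgeR adjusted p = 0.0253) and DESeq2 (0.86, DESeq2 adjusted p = 0.0324).

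Ccl6 and Ccl9 differed little between genotypes. Ccl6 averaged 5952 ± 502 CPM in KO CM and 6060 ± 668 CPM in WT CM, and the 95% interval of the KO to WT fold was 0.835 to 1.15. For Ccl9, with 1761 ± 80.2 CPM in KO CM and 1695 ± 59 CPM in WT CM, it was 0.958 to 1.13. In control medium the intervals were 0.754 to 1.05 for Ccl6 and 0.97 to 1.14 for Ccl9. Each of these intervals includes a fold of 1. In WT, libraries 3 and 4 did not overlap libraries 1 and 2 for either gene. They had 1.17 times (CM) and 1.32 times (control medium) the Ccl6 level, and 0.943 and 0.911 times the Ccl9 level. With WT libraries 3 and 4 left out, the log2 KO difference of Ccl6 was 0.10 in CM and 0.05 in control medium, neither called. Over all libraries it was -0.03 and -0.17.

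Ccl3 averaged 54 ± 1.97 CPM in KO CM and 47.5 ± 2.27 CPM in WT CM (log2 0.18 ± 0.06, edgeR adjusted p = 0.0895). It passed in 4 of 25 alternatives. These were the library set as a term (0.22, edgeR adjusted p = 0.0223), library totals alone (0.21, edgeR adjusted p = 0.0471), the most-counted exon (0.26, edgeR adjusted p = 0.0441) and DESeq2 (0.18, DESeq2 adjusted p = 0.0321). Ccl4 averaged 16.4 ± 1.57 CPM in KO CM and 10.5 ± 2.56 CPM in WT CM (0.64 ± 0.19, edgeR adjusted p = 0.0743). Much of that difference moved with the library set, since the value was 0.38 with WT libraries 3 and 4 left out (edgeR adjusted p = 0.0481) and 0.35 with the set as a term (edgeR adjusted p = 0.0331), and it was 0.76 without WT CM library 2 (edgeR adjusted p = 0.0432). In control medium the value of Ccl4 was 0.44 ± 0.20 over all libraries (edgeR adjusted p = 0.176) and 0.14 with WT libraries 3 and 4 left out (edgeR adjusted p = 0.506). Ccl24 had lower values in KO, -0.43 ± 0.20 in CM (edgeR adjusted p = 0.219) and -0.44 ± 0.23 in control medium (edgeR adjusted p = 0.234), with overlapping groups. Ccl22 had 0.06 ± 0.66 in CM and 0.12 ± 0.67 in control medium.

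**Figure D4:**
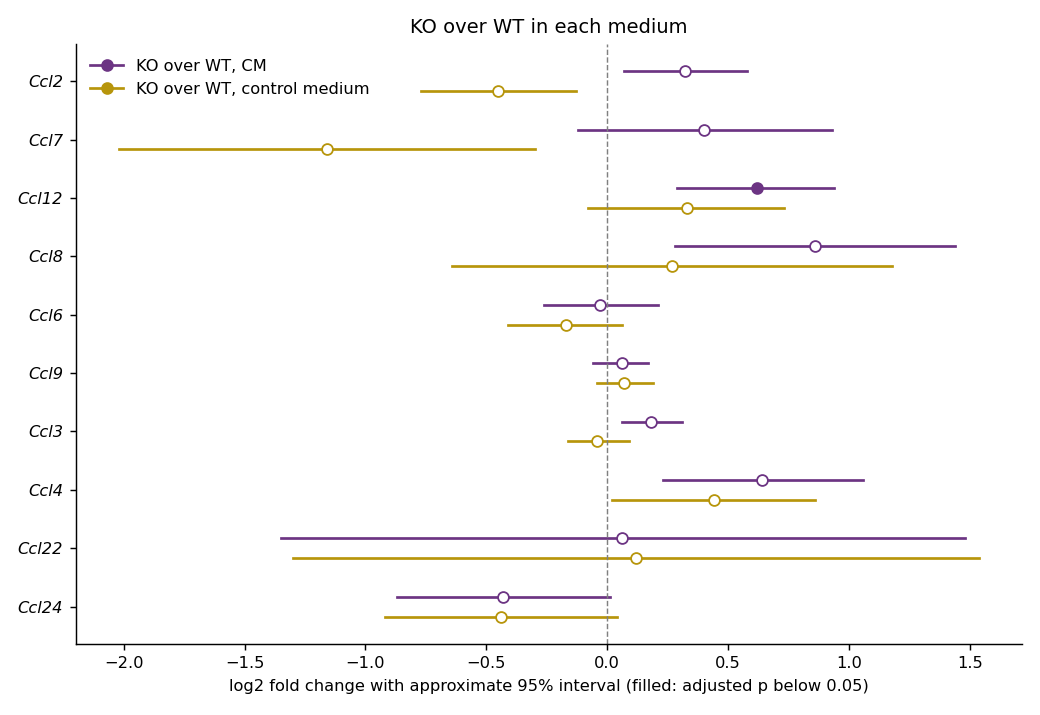
Log2 fold change of each ligand in KO over WT, in CM above control medium in each row, with approximate 95% intervals and a filled point for an adjusted p below 0.05. Ccl12 in CM (0.62) is the filled point, Ccl2 and Ccl7 have opposite signs in CM (0.32 and 0.40) and control medium (-0.45 and -1.16), and Ccl6 and Ccl9 lie near 0.

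Whether the response to CM differed between genotypes was tested by the interaction, the response in KO minus that in WT. It called 0 of 10 ligands and 0.00% of all genes. Of the ligands 3 had an unadjusted p under 0.05, as did 1050 of all genes, and DESeq2 called 2 ligands and 84 genes. The 3 were Ccl2, with 0.77 ± 0.19 on the log2 scale (1.71-fold, 95% interval 1.28 to 2.27, edgeR adjusted p = 0.305), Ccl7, with 1.56 ± 0.47 (2.95-fold, 95% interval 1.47 to 5.92, edgeR adjusted p = 0.375), and Ccl3, with 0.22 ± 0.08 (edgeR adjusted p = 0.509). The 2 that DESeq2 called were Ccl2 (adjusted p = 0.0293) and Ccl7 (adjusted p = 0.0454). The other 7 had values of -0.06 to 0.59. Ccl6 and Ccl9, which make up most of the summed level, had 0.15 ± 0.16 and -0.02 ± 0.08.

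Of the other 4 CC ligands tested, Ccl5 in control medium and no other was called between genotypes. Ccl5, a CC ligand outside the 10, averaged 2.06 ± 0.156 CPM in KO CM and 3.19 ± 0.133 CPM in WT CM (log2 -0.63, edgeR adjusted p = 0.0644), and 2.17 ± 0.396 CPM in KO control and 3.69 ± 0.876 CPM in WT control, where it fell by 0.77 (edgeR adjusted p = 0.0242). With WT libraries 3 and 4 left out that value was -0.54 and did not pass (edgeR adjusted p = 0.166). With the library set as a term it was -0.63 and passed (edgeR adjusted p = 0.0398). Ccl27a, a ligand of the skin-homing receptor Ccr10, had 0.4, 0.333 and 0.249 CPM in KO control, against 0.0217, 0.0587, 0.0729 and 0.167 CPM in WT control. Those groups did not overlap, but the difference of 1.89 ± 0.68 did not pass (edgeR adjusted p = 0.109), nor did that of 1.59 ± 0.71 in CM (edgeR adjusted p = 0.197). No receptor named above was called. Of the 26 regulators, 1 was called, Nfkb2, which fell by 0.23 in CM (edgeR adjusted p = 0.0174), and by 0.17 without passing when WT libraries 3 and 4 were left out (edgeR adjusted p = 0.0971). Its value with the set as a term was -0.19 and passed (edgeR adjusted p = 0.0107). Of the 11 proteases, 3 were higher and 1 was lower in KO in CM. Mmp8 rose by 0.94, Mmp13 by 0.76 and Mmp12, the macrophage elastase, by 0.39, while the cathepsin Ctss fell by 0.40. Mmp12 was lost with WT libraries 3 and 4 left out (0.34, edgeR adjusted p = 0.119), and Ctss had -0.23 there (edgeR adjusted p = 0.0378). Mmp12 passed with the set as a term (0.38, edgeR adjusted p = 0.0289). In control medium Mmp8 rose by 0.64 and Mmp13 by 0.50, while Ctsl fell by 0.25 and Ctss by 0.35.

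The genes whose levels followed each ligand most closely over the 14 libraries, taken from genes that averaged at least 4 CPM, had Pearson correlations of log CPM of 0.954 to 0.999 for every ligand other than Ccl22. For Ccl6 they were Gda, Atf5 and Tfec (0.998 to 0.999), for Ccl2 Dnajc10, Ccr1 and Litaf (0.996 each), for Ccl9 Aifm2, Bst1 and Prkca (0.996 to 0.998), and for Ccl12 Arg1, Vcan and Msrb1 (0.991 to 0.994). For Ccl4 they were Rps12, Rpsa and Dnpep (0.967 to 0.968). Among the ligands themselves, Ccl2, Ccl3, Ccl6, Ccl7, Ccl8, Ccl9 and Ccl12 correlated with each other at 0.9 to 0.99, whereas Ccl4 correlated with the others at 0.16 to 0.53 and Ccl22 at -0.21 to 0.24. All points share the same libraries and the split between 2 media, and that split is part of every coefficient. The level of Ccl4 also followed the set of WT libraries, and the part of that set in its coefficients was not tested.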

How the data were processed

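RNA of 14 macrophage cultures was sequenced as paired reads of 150 bp, per the labels' protocols. The authors deposited raw counts for each exon entry. The submitters' processing notes name HISAT2 as a tool and mm10 as the genome build. The counting tool, annotation and strand setting are not given in the sources used here. The table holds 427386 exon entries over 25239 symbols, and 0 entries name no gene. Of the entries, 196941 repeat another of the same gene with equal length and counts and hold 48.6% of the counts. They were dropped, and the remaining 230445 were summed per gene. Fragments that cross an exon junction may count for both exons.

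The test was the quasi-likelihood test of edgeR 4.0.16 (R 4.3.3), with TMM factors and a filter on low counts (minimum count 10, minimum total 15). All 4 groups entered 1 model, and p-values were adjusted over all 13311 tested genes by the Benjamini-Hochberg method. CPM are counts scaled to TMM-adjusted library size by edgeR. Intervals are 95% intervals from the fit, and the interval of a count ratio covers counting error only. Means stand with the SD and fold changes with the SE. Alternatives were DESeq2 1.42.0, other scalings, filters and exon summaries, a fit restricted to the groups compared, the library set, the replicate number as a block, and leaving out each library.

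All 10 ligands are named. Other lists are given as counts, with up to 4 members named by smallest p, and other CC ligands, receptors and neighbouring genes where they had counts. The members and lists were chosen with earlier results of these data known. Same-numbered WT libraries of both media deviated together from their group means (correlations 0.33, 0.35, 0.47 and 0.46, above a limit of 0.1). KO libraries did not (-0.04 to 0.05). For WT the best correlation with a library of another number was 0.35, 0.31, 0.37 and 0.46. The numbers were thus not shown to pair WT libraries. Promoter sequences are RefSeq's for GRCm38.p6, and similar genes were ranked by log CPM with a prior count of 2. Some listed genes are not reported here.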

Additional observations from a re-analysis of the deposited data

Results flagged for a closer look

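In groups of 4 libraries, 1 library of a ligand was looked for that lay far from the other 3. Of 20 such groups, 3 held one, and chance gives about 1 in 20, though these groups share their libraries. Ccl7 was at 0.304 CPM in WT control library 3, below the other 3, which held 0.847 to 0.94 CPM. Without that library the KO difference of Ccl7 in control medium was -1.45 and passed (edgeR adjusted p = 0.0245). Ccl12 was at 5.04 CPM in WT CM library 1, against 6.25 to 6.45 CPM in the others. Without it the KO difference of Ccl12 in CM was 0.54 and did not pass (edgeR adjusted p = 0.0667). Ccl3 was at 29.9 CPM in WT control library 1, against 33.1 to 33.6 CPM in the others.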

How the results depend on the processing

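The 8 ligands raised by CM kept their direction and their call in both genotypes under every alternative run. Results between genotypes moved. The number of ligands called between genotypes in CM was 1 over all libraries, where 611 genes were called. It was 2 with library totals alone (643 genes) and 4 with DESeq2 (1219 genes). It was 2 with WT libraries 3 and 4 left out (478 genes) and 4 with the library set as a term (923 genes). With the most-counted exon of each gene it was 2 (430 genes). When each library was left out in turn it was 0 to 2 (217 to 721 genes). In control medium it was 0 (708 genes), and 2 with DESeq2 (1501 genes). There it was 1 with WT libraries 3 and 4 left out (514 genes) and 1 with the set as a term (1039 genes). With 1 library left out it was 0 to 1 (224 to 1769 genes). For the interaction it was 0, and 2 with DESeq2. Over all genes, KO in control medium called 708, against 1501 with DESeq2, 283 in a fit of only the compared groups, 384 with the most-counted exon, and 224 to 1769 with 1 library left out, the highest without WT control library 2 (1769), and lower without KO control libraries 1, 2 and 3 (282, 224 and 244) or WT control libraries 3 and 4 (285 and 330). KO in CM called 611, against 1219 with DESeq2, 923 with the set as a term, and 217 to 721 with 1 library left out, the lower counts being without KO CM libraries 1, 2 and 3 (307, 363 and 217) or WT CM libraries 3 and 4 (292 and 259). The interaction called 0, against 84 with DESeq2, 11 with WT libraries 3 and 4 left out, 164 with the set as a term, and 0 to 2 with 1 library left out. The cause of these shifts was not tested.

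With the replicate block, the response to CM called 9 ligands in each genotype, Ccl4 being added. Over all genes it called 5591 in KO and 5449 in WT, against 5077 in KO and 4960 in WT without the block. Between genotypes in CM, Ccl4 was called (0.55, edgeR adjusted p = 0.0255) and Ccl12 was not (0.60, edgeR adjusted p = 0.0656), though KO and WT numbers do not pair. The block changed no other call of a ligand. Ccl12 was also lost with the most-counted exon (0.56, edgeR adjusted p = 0.0519). Depth limits Ccl22, and Ccl7 and Ccl8 in control medium.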
